A study of Mus musculus with 24 samples.

Results

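The cell-cycle cyclins analysed here are the 9 genes Ccnd1, Ccnd2, Ccnd3, Ccne1, Ccne2, Ccna2, Ccnb1, Ccnb2 and Ccnf, chosen by symbol from 21671 genes whose mRNA was profiled by RNA-Seq in mouse spleen. B cells were those retained on B220 MicroBeads after lysis of the red cells, and non-B cells were the flow-through, a mixture of all other spleen cells. Both populations came from C57/Bl6 mice of 8 weeks, either Trp53+/+ or Trp53-/-, the latter lacking p53 from birth in every tissue. Mice were unstressed (mock) or were taken 4 h after whole-body irradiation (IR) with 7 Gy, which gives 8 groups and 24 samples, with 4 samples for each Trp53+/+ group and 2 for each Trp53-/- group.

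Cyclins are the activating subunits of cyclin-dependent kinases (Cdks), and most are made and destroyed at set points of the cell cycle. D-type cyclins pair with Cdk4 or Cdk6 in G1 and carry mitogenic signals to the retinoblastoma protein, E-type cyclins drive S phase entry with Cdk2, cyclin A2 acts through S phase and G2, and B-type cyclins start mitosis with Cdk1. Cyclin F is the exception: it activates no kinase and is the substrate-binding F-box subunit of an SCF ubiquitin ligase. After DNA damage, p53 induces Cdkn1a, whose product p21 inhibits Cdk complexes, and it is known to lower many S phase and mitotic genes through p21 and the repressor complex DREAM.

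The estimated depth was 4.78 M to 11.06 M (mega) reads per sample, at which the least covered cyclin value rested on about 33 reads (Ccnb2 in an irradiated Trp53+/+ B sample). Reads still mapped to Trp53 in the knockout, at 21.6 to 41.8 RPKM (reads per kilobase of gene model per M reads mapped to exons) against 35.0 to 65.8 RPKM in Trp53+/+ samples, so that this gene is no strict check of the labels. Cdkn1a rose with IR in Trp53+/+ cells by 5.83 ± 0.12 on the log2 scale (SE) in B and by 3.99 ± 0.21 in non-B cells, against 0.02 and 0.39, not called, in Trp53-/- cells. The summed RPKM of 9 B cell markers was 980 to 1246 in B and 240 to 672 in non-B samples, and that of 8 T cell markers was 41.9 to 79.4 in B and 301 to 651 in non-B samples, so that the non-B samples still held B cell RNA. The Trp53+/+ non-B mock replicates 1 and 2 stood apart, with a summed RPKM of 10 erythroid markers of 483 and 473 against 162 and 191 in replicates 3 and 4. Fold changes of Ccna2, Ccnb1, Ccnb2 and Ccnf with IR in Trp53+/+ non-B cells are given with and without replicates 1 and 2. So are their differences between unstressed cell types. Other fold changes, the ratio tests and values of genes outside the 9 cyclins are given with these replicates only. Olfactory and vomeronasal receptor genes (1440), whose usual place is sensory neurons, were above 0 RPKM for 5.42 to 9.31% of their number in mock samples, and for 36.7, 47.3, 7.01 and 15.97% in irradiated Trp53+/+ B, 24.7, 8.61, 51.3 and 35.8% in irradiated Trp53+/+ non-B and 6.88 to 13.1% in irradiated Trp53-/- samples. The share was thus above all mock samples in most irradiated Trp53+/+ samples, although B replicate 3 and non-B replicate 2 were at mock level, and its part in the cyclin values was not tested beyond a fit with the mean log2 level of these genes as a covariate. In bulk samples, fewer cells of a type and less RNA per cell cannot be told apart.

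All 9 cyclins passed the expression filter in each of the fits. A gene was called when limma's adjusted p was under 0.05 and the absolute log2 fold change above 0.58, and differences between responses were called on the adjusted p alone. IR raised 2 cyclins (Ccnd2 and Ccnf, against 12.5% of all genes tested) and lowered 5 (Ccne1, Ccna2, Ccnb1, Ccnb2 and Ccnd1, against 12.2%) in Trp53+/+ B cells. Of the 9, 1 rose (Ccnd2, against 13.1%) and 1 fell (Ccne1, against 11.2%) in Trp53-/- B cells. None rose in Trp53+/+ non-B cells, against 5.74%, and 4 fell (Ccne1, Ccna2, Ccnb1 and Ccnb2, against 4.11%). In Trp53-/- non-B cells, none of the 9 was called, where limma called 0.193% of genes up and 0.25% down, and 1 cyclin (Ccne1) had an unadjusted p under 0.05.

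**Figure D1:**
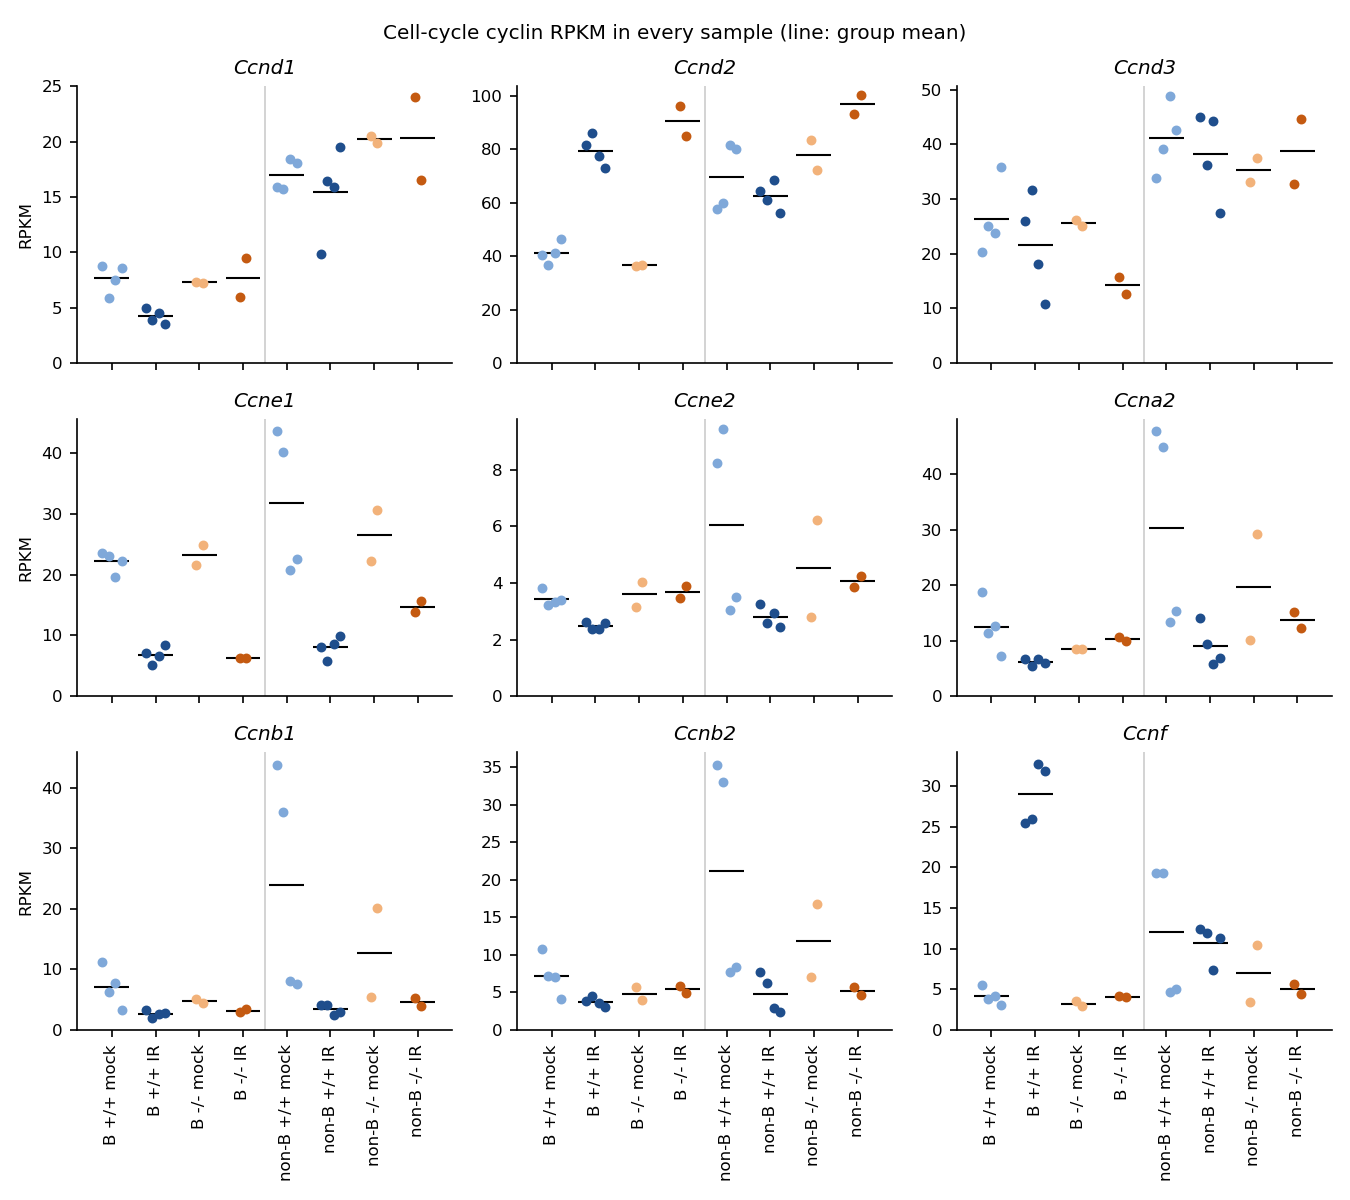
RPKM of each cyclin in the 24 samples, by cell type, Trp53 genotype and treatment; each point is a sample and the line is the group mean, with a vertical axis that starts at 0. The 4 irradiated Trp53+/+ B samples sit at 25.5 to 32.7 RPKM for Ccnf, above all other samples, while Ccna2, Ccnb1 and Ccnb2 are highest in the Trp53+/+ non-B mock replicates 1 and 2.

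Since RPKM is a level per length, the cyclins can be ranked within a group. Ccnd2 had the highest mean RPKM of the 9 in each of the 8 groups, and its samples did not overlap those of the next cyclin. In unstressed Trp53+/+ B cells it was followed by Ccnd3 (26.3 ± 6.7 RPKM, SD, n = 4) and Ccne1 (22.1 ± 1.8), whose ranges overlapped, and then by Ccna2 at 12.6 ± 4.8, Ccnd1 at 7.68 ± 1.31, Ccnb2 at 7.22 ± 2.73, Ccnb1 at 7.09 ± 3.34, Ccnf at 4.15 ± 1.03 and Ccne2 at 3.45 ± 0.27. From Ccna2 down, each neighbour in this order overlapped the next. After IR, Ccnf moved from the rank 8 to the rank 2 in these cells, at 29.0 ± 3.8 RPKM, overlapping Ccnd3.

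Ccnd2 (mm9 chr6:127075797-127101066, minus strand) encodes cyclin D2, the D-type cyclin that B cells use for their response to antigen receptor signals. In Trp53+/+ B cells it was at 40.4, 36.7, 41.4 and 46.3 RPKM in the mock samples and at 81.5, 85.9, 77.3 and 73.0 RPKM after IR. The Trp53-/- B samples were at 36.3 and 36.8 RPKM in mock and at 96.2 and 85.1 RPKM after IR. All irradiated B samples, of either genotype, thus lay above all mock B samples. Among the Trp53+/+ B samples alone, 22.9% of genes were likewise higher in all irradiated samples. The share over both genotypes is not given. The rise was 1.92-fold in Trp53+/+ (log2 0.94 ± 0.08, adjusted p = 8.2e-07) and 2.46-fold in Trp53-/- B cells (1.30 ± 0.11, adjusted p = 3.5e-06), and the difference between genotypes did not pass (-0.35, 95% interval -0.64 to -0.07, adjusted p = 0.084). In Trp53+/+ non-B cells Ccnd2 was at 57.5, 59.7, 81.6 and 79.9 RPKM in mock and at 64.3, 61.1, 68.4 and 56.0 RPKM after IR, with overlapping groups and a log2 fold change of -0.14 (adjusted p = 0.44). The Trp53-/- non-B samples were at 83.4 and 72.3 RPKM in mock and at 93.2 and 100.4 RPKM after IR, not called (log2 0.32, adjusted p = 0.41). The response in Trp53+/+ non-B cells differed from that in B cells by -1.08 ± 0.16 on the log2 scale (adjusted p = 0.00013). Differences of this kind between cell types were called upward for 12.6% and downward for 15.4% of genes, and for 2 of the 9 cyclins, Ccnd2 and Ccnf, both downward.

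Ccnd1 (chr7:152115836-152125774, minus strand), which encodes cyclin D1, was the D-type cyclin with the lowest level. In Trp53+/+ B cells it was at 8.74, 5.92, 7.47 and 8.60 RPKM in mock and at 4.98, 3.88, 4.57 and 3.49 RPKM after IR, without overlap. This was a fall by 0.79 ± 0.17 on the log2 scale (adjusted p = 0.0017), whereas Trp53-/- B cells gave 0.04 ± 0.23. The difference between genotypes was -0.83 with an adjusted p of 0.064, so that it was not called. In non-B cells Ccnd1 was not called in either genotype (log2 -0.17 and -0.02), and its mRNA was above that of B cells in unstressed Trp53+/+ samples, at 15.7 to 18.4 RPKM, and after IR, at 9.87 to 19.5 RPKM. Exons of Ccnd1 overlap those of Oraov1 on the other strand, and the library kit did not mark strand, so that reads of the 2 genes cannot be told apart there. Oraov1 was at 11.97 ± 1.29 RPKM in mock and 11.8 ± 1.2 RPKM in irradiated Trp53+/+ B cells.

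Ccnd3 (chr17:47642000-47736632, plus strand; cyclin D3) was not called with IR in any group. In Trp53+/+ B cells it spread widely, from 20.3 to 35.9 RPKM in mock and from 10.9 to 31.7 RPKM after IR (log2 -0.35 ± 0.27, adjusted p = 0.3), and in Trp53-/- B cells it was at 26.1 and 25.0 RPKM in mock and at 15.8 and 12.7 RPKM after IR (log2 -0.83 ± 0.38, adjusted p = 0.1). Its exons overlap those of Bysl on the other strand, which went from 12.1 ± 0.7 to 33.4 ± 2.1 RPKM (n = 2) in Trp53-/- B cells, and mm9 holds 1 further copy at 95% identity or more, so that its values are uncertain. As a share of the summed RPKM of the D-type cyclins, Ccnd2 made up 51.0 to 58.1% in unstressed and 70.7 to 83.5% in irradiated Trp53+/+ B samples. The share was 52.1 and 53.3% against 81.5 and 79.3% in Trp53-/- B cells, while in Trp53+/+ non-B cells it was 52.1 to 56.8% in mock and 53.2 to 54.4% after IR. The log2 ratio of Ccnd2 to Ccnd3 was 1.29 higher after IR in Trp53+/+ B cells, with no overlap, and did not pass after adjustment (exact two-sided permutation test, p = 0.0286, the smallest that 4 against 4 samples allow, and 0.0857 after adjustment over 9 ratio tests). The same ratio moved by -0.03 in Trp53+/+ non-B cells (exact permutation p = 0.914).

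**Figure D2:**
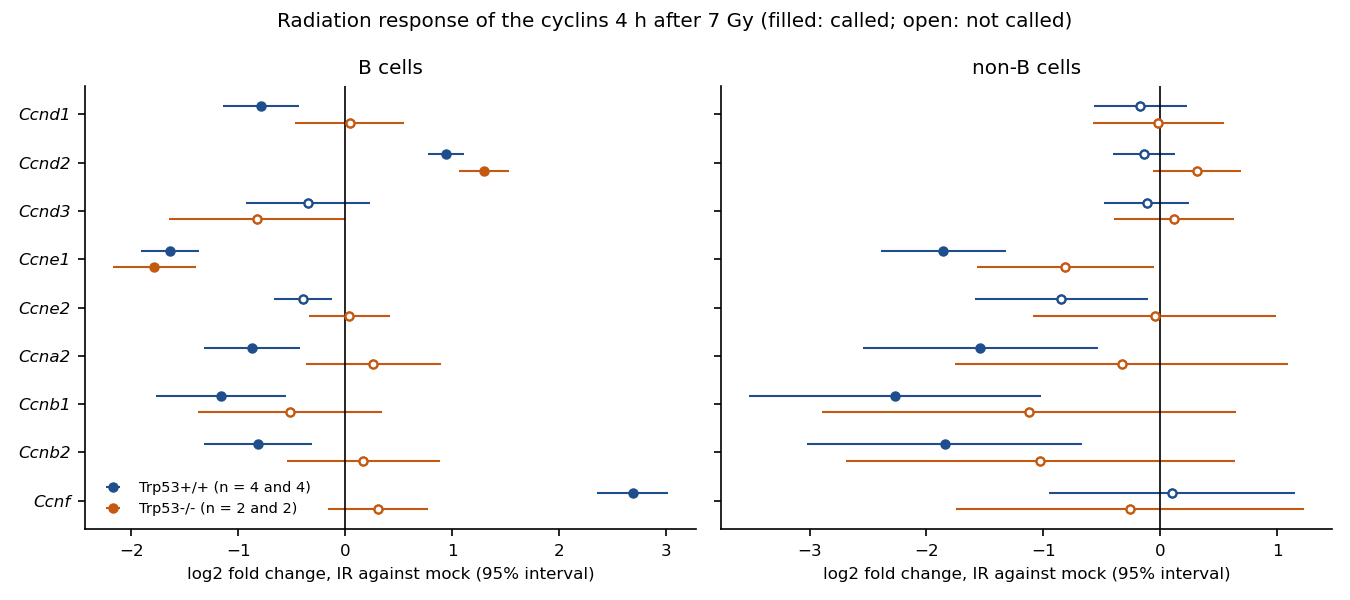
log2 fold change of each cyclin between irradiated and mock samples, with its 95% interval from limma, in B cells (left) and non-B cells (right; the horizontal scales differ); filled points were called and open points were not. Ccnf is at 2.69 in Trp53+/+ and at 0.30 in Trp53-/- B cells, while Ccnd2 and Ccne1 are called in B cells of both genotypes.

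Ccne1 (chr7:38883003-38892553, minus strand) encodes cyclin E1, which loads Cdk2 at the entry into S phase. It was at 23.6, 23.1, 19.6 and 22.3 RPKM in unstressed and at 7.19, 5.11, 6.67 and 8.50 RPKM in irradiated Trp53+/+ B cells. The Trp53-/- B samples went from 21.6 and 24.8 RPKM to 6.37 and 6.36 RPKM. The irradiated and mock samples of B cells did not overlap in either genotype. Among the Trp53+/+ B samples, 23.3% of genes were likewise lower in all irradiated samples. The share for the Trp53-/- samples, 2 against 2, is not given. The fall was by 1.64 ± 0.13 (adjusted p = 5.2e-07) and by 1.78 ± 0.18 (adjusted p = 1.1e-05) on the log2 scale, and the genotypes differed by 0.15, with a 95% interval from -0.33 to 0.62 (adjusted p = 0.69). In Trp53+/+ non-B cells Ccne1 was at 43.6, 40.1, 20.8 and 22.6 RPKM in mock and at 8.07, 5.83, 8.65 and 9.84 RPKM after IR, again without overlap (fall by 1.86 ± 0.24, adjusted p = 0.00051). The Trp53-/- non-B samples were at 22.3 and 30.6 RPKM in mock and at 13.8 and 15.6 RPKM after IR, below mock in both, with a log2 fold change of -0.81 ± 0.34 that did not pass (adjusted p = 0.28). Ccne1 was the single cyclin called down in 3 of the 4 IR comparisons, and its call in Trp53+/+ non-B cells was kept without mock replicates 1 and 2 and under each other alternative. The genotype difference in non-B cells was -1.04 ± 0.42 (adjusted p = 0.15).

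Ccne2 (chr4:11118498-11131926, plus strand), which encodes the second E-type cyclin, had the lowest or next to lowest mean level of the 9 in each group. It was at 3.84, 3.22, 3.34 and 3.40 RPKM in unstressed and at 2.61, 2.39, 2.37 and 2.60 RPKM in irradiated Trp53+/+ B cells. The groups did not overlap, but the change of -0.40 ± 0.12 on the log2 scale (adjusted p = 0.018) was under the fold threshold. In Trp53-/- B cells the log2 fold change was 0.04 ± 0.175. The genotypes differed by -0.44 in B cells (limma adjusted p = 0.18), not called. Ccne2 was not called in Trp53+/+ non-B cells (-0.85 ± 0.34, adjusted p = 0.098) or in Trp53-/- non-B cells (-0.05 ± 0.48). The genotype difference there was -0.80 (limma adjusted p = 0.42), not called. In Trp53+/+ non-B mock samples Ccne2 was at 8.23, 9.43, 3.05 and 3.50 RPKM, highest in replicates 1 and 2. After IR it was at 3.27, 2.58, 2.95 and 2.45 RPKM. Its exons overlap Ints8 on the other strand, at 17.3 ± 0.4 RPKM in unstressed Trp53+/+ B cells. The log2 ratio of Ccne2 to Ccne1 was 1.24 higher after IR in Trp53+/+ B and 1.01 higher in Trp53+/+ non-B cells, both without overlap, but neither passed after adjustment (exact two-sided permutation p = 0.0286 for each, 0.0857 adjusted).

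Ccna2 (chr3:36463788-36471072, minus strand; cyclin A2), Ccnb1 (chr13:101548605-101556525, minus strand; cyclin B1) and Ccnb2 (chr9:70255496-70269361, minus strand; cyclin B2) rise in S phase and G2 of dividing cells. Ccna2 was in Trp53+/+ B cells at 18.8, 11.4, 12.7 and 7.30 RPKM in mock and at 6.73, 5.55, 6.76 and 6.10 RPKM after IR. Ccnb1 was at 11.3, 6.27, 7.64 and 3.19 RPKM in mock and at 3.28, 1.98, 2.58 and 2.78 RPKM after IR. Ccnb2 was at 10.7, 7.13, 6.97 and 4.06 RPKM in mock and at 3.88, 4.46, 3.51 and 3.01 RPKM after IR. All 3 were highest in mock replicate 1 and lowest in mock replicate 4, and for Ccnb1 and Ccnb2 the latter overlapped the irradiated samples. The falls were by 0.87 ± 0.21 for Ccna2 (adjusted p = 0.0036), by 1.17 ± 0.28 for Ccnb1 (adjusted p = 0.004) and by 0.81 ± 0.23 for Ccnb2 (adjusted p = 0.011), and with the receptor covariate all 3 stayed called (adjusted p = 0.04, 0.045 and 0.021). Of the 9 cyclins, Ccnd1, Ccne1, Ccne2 and Ccna2 had all irradiated Trp53+/+ B samples below all mock samples, as did 23.3% of genes, and Ccnd2 and Ccnf had them above, as did 22.9%.

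None of these 3 was called in Trp53-/- B cells. Ccna2 was at 8.61 and 8.51 RPKM in mock and 10.7 and 10.04 RPKM after IR, Ccnb1 at 5.09 and 4.41 against 2.94 and 3.38 RPKM, and Ccnb2 at 5.66 and 3.90 against 5.81 and 4.94 RPKM. The difference between genotypes in B cells was called for 2 cyclins, upward for Ccnf (8.14% of genes) and downward for Ccna2 (-1.14 ± 0.36, adjusted p = 0.043; 10.6% of genes). The Ccna2 difference was lost in 10 of the 12 fits that left out a single B sample, where it stayed between -1.18 and -1.08 with an adjusted p of 0.054 to 0.14, and was kept without Trp53+/+ mock replicate 1 or 4. With the receptor covariate it was -1.06 (adjusted p = 0.089), not called. For Ccnb1 and Ccnb2 the difference was -0.65 (adjusted p = 0.39) and -0.98 (adjusted p = 0.11), not called.

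In non-B cells these cyclins were highest in the mock replicates that stood apart. Ccna2 was at 47.8, 44.9, 13.4 and 15.3 RPKM in unstressed Trp53+/+ samples and at 14.1, 9.41, 5.77 and 6.95 RPKM after IR. Ccnb1 was at 43.8, 36.1, 7.98 and 7.60 RPKM against 4.10, 4.07, 2.37 and 2.94 RPKM, and Ccnb2 at 35.4, 33.0, 7.74 and 8.36 RPKM against 7.66, 6.21, 2.82 and 2.40 RPKM. Ccnb1 and Ccnb2 were lower in all irradiated than in all mock samples, as was Ccne1 and as were 12.1% of genes (10% were higher), while the highest irradiated sample of Ccna2 overlapped mock replicate 3. The falls were by 1.54 ± 0.46 for Ccna2 (adjusted p = 0.038), by 2.27 ± 0.57 for Ccnb1 (adjusted p = 0.02) and by 1.85 ± 0.54 for Ccnb2 (adjusted p = 0.036). Without mock replicates 1 and 2 they were by 0.71, 1.13 and 0.84 and no longer passed (adjusted p = 0.25, 0.097 and 0.23). With the receptor covariate they were by 1.15, 1.94 and 1.25 and did not pass (adjusted p = 0.35, 0.23 and 0.37). All 3 were lower after IR at each of the 4 replicate numbers, and with the replicate number as a block limma's adjusted p was 0.012, 0.0097 and 0.0029. The labels do not give samples of the same number as pairs, so that these values rest on an assumed pairing. Without the block, leaving out single samples ended the call of Ccnb1 without mock 2 or irradiated 3 (adjusted p = 0.055 and 0.068) and that of Ccnb2 without mock 1 or 2 or irradiated 3 or 4 (0.08 to 0.11). The call of Ccna2 was lost without mock 1 or 2, irradiated 2, 3 or 4, or either irradiated Trp53-/- sample (0.052 to 0.12). In Trp53-/- non-B cells, mock replicate 2 was likewise far above replicate 1, with 29.3 against 10.2 RPKM for Ccna2, 20.2 against 5.33 RPKM for Ccnb1 and 16.7 against 7.01 RPKM for Ccnb2, and none was called (unadjusted p of 0.62, 0.19 and 0.2 from limma). The genotype difference in non-B cells was called for 0 of 9 cyclins, where 3.98% of genes were called up and 3.37% down, with Ccne1 at an unadjusted p of 0.03 and the others above 0.05. Values of Ccnb1 are uncertain, because mm9 holds 3 further copies at 95% identity or more, and those of Ccna2 share exons with Exosc9 on the other strand, which went from 8.53 ± 0.98 to 14.4 ± 0.8 RPKM in Trp53+/+ B cells.

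Erythroid markers moved with Ccna2, Ccnb1 and Ccnb2 in non-B cells. In the Trp53+/+ non-B samples, the summed RPKM of the 10 markers was 483, 473, 162 and 191 in mock and 116, 47.2, 45.2 and 67.9 after IR, and in Trp53-/- it was 91.0 and 363 in mock and 146 and 123 after IR. The sum in Trp53+/+ B cells was 152, 95.7, 82.2 and 128 in mock and 61.0 to 72.0 after IR. The samples highest for the markers were thus those highest for Ccna2, Ccnb1 and Ccnb2 in non-B cells, whereas in B cells the Trp53-/- mock replicate 2, at 193 for the markers, was not high for Ccnb1 (4.41 RPKM). Of the Trp53+/+ B mock samples, replicate 1 was highest for the markers and for these cyclins. Replicate 4, next for the markers at 128, was lowest for these cyclins. With IR, 6 of the 10 markers fell in Trp53+/+ B cells (list median -1.45, all genes 0.01) and 6 fell in Trp53+/+ non-B cells (list median -2.39, all genes -0.03), and none was called in Trp53-/- cells. Of the other marker lists, in Trp53+/+ B cells 2 of 9 B cell and 1 of 8 T cell markers fell, 1 of 6 germinal centre and plasma cell markers rose, and none of 7 myeloid, 4 NK cell and 4 megakaryocyte markers was called. The counts in Trp53+/+ non-B cells were 2 of 9 B cell and 2 of 8 T cell markers down, 1 of 6 germinal centre and plasma cell markers up, and none of 8 myeloid, 4 NK cell and 4 megakaryocyte markers. Of all genes, 12.5% rose and 12.2% fell in Trp53+/+ B cells, and 5.74% rose and 4.11% fell in Trp53+/+ non-B cells. Of the erythroid markers, Car1 was at 0 in at least 1 irradiated Trp53+/+ non-B sample and the others were above 0 in each sample. With the mean log2 level of the markers as a covariate (added once the data had been seen), Ccna2, Ccnb1 and Ccnb2 in Trp53+/+ non-B cells had log2 fold changes of 0.56, 0.23 and 0.35, none called, while Ccne1 stayed called. In Trp53+/+ B cells the same fit gave -0.75, -1.04 and -0.84 (adjusted p = 0.082, 0.078 and 0.087), close to the values without the covariate but with larger standard errors. The mean log2 marker level did not overlap between mock and irradiated Trp53+/+ samples. It was 2.54 to 3.62 against 1.42 to 1.82 in B cells, and 3.67 to 5.52 against 1.65 to 2.90 in non-B cells. These fits thus do not cleanly separate the covariate from IR, and the part of erythroid cells in the result was not tested.

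**Figure D3:**
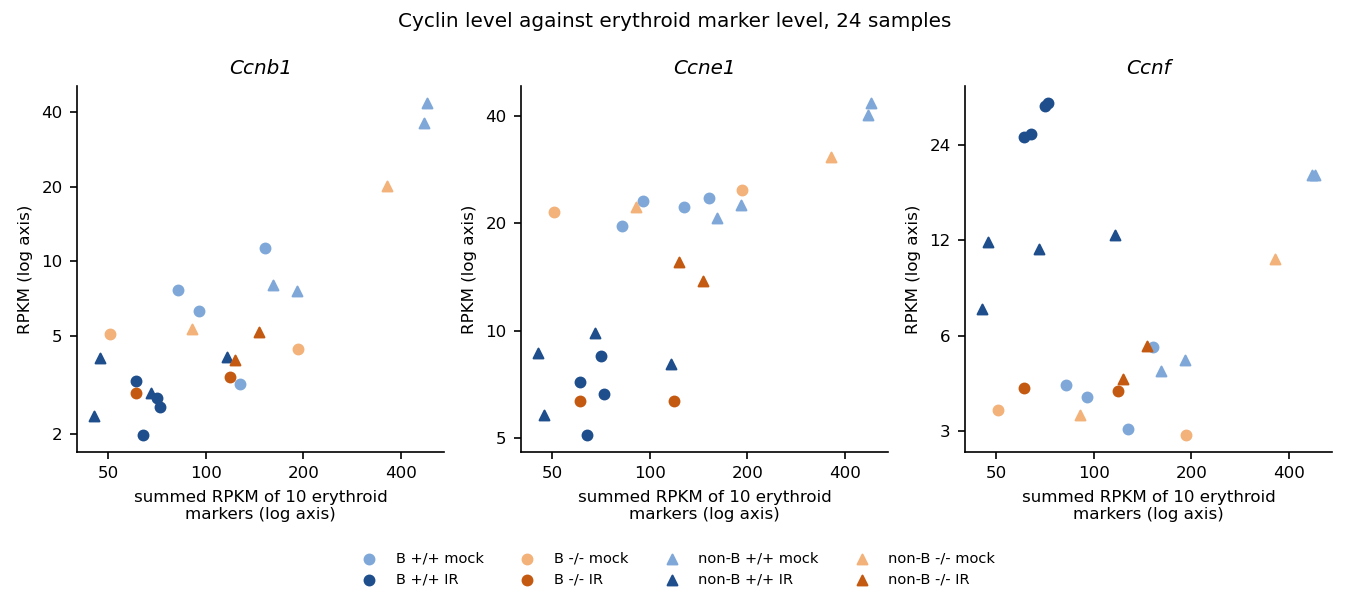
RPKM of Ccnb1, Ccne1 and Ccnf against the summed RPKM of 10 erythroid markers in the 24 samples (all axes are logarithmic; circles are B and triangles non-B samples). The 3 samples with the highest marker sums (363 to 483) are unstressed non-B samples and have the highest Ccnb1 values, while the 4 irradiated Trp53+/+ B samples have the highest Ccnf values at marker sums of 61.0 to 72.0.

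Ccnf (chr17:24359494-24388292, minus strand) had the largest log2 fold change of the 9 in Trp53+/+ B cells. In Trp53+/+ B cells it was at 5.52, 3.83, 4.20 and 3.04 RPKM in mock and at 25.5, 26.0, 32.7 and 31.9 RPKM after IR. The Trp53-/- B samples were at 3.50 and 2.92 RPKM in mock and at 4.09 and 4.03 RPKM after IR. The irradiated Trp53+/+ samples were far above all other B samples, which spanned 2.92 to 5.52 RPKM. The rise was 6.43-fold (log2 2.69 ± 0.15, adjusted p = 3.8e-08) in Trp53+/+ and 1.23-fold in Trp53-/- B cells (log2 0.30, 95% interval -0.16 to 0.77, adjusted p = 0.29), and the genotypes differed by 2.38 ± 0.26 (adjusted p = 7.5e-05). The difference was kept in each of the 12 alternatives and 12 fits without a single sample, between 2.06 and 2.70. No exon of another protein-coding gene overlaps Ccnf, and the nearest such gene on the same strand, 1600002H07Rik, was at 8.52 ± 1.26 RPKM in mock and 10.8 ± 1.4 RPKM in irradiated Trp53+/+ B cells.

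In Trp53+/+ non-B cells Ccnf was at 19.4, 19.3, 4.63 and 5.04 RPKM in mock and at 12.5, 11.9, 7.30 and 11.3 RPKM after IR. The irradiated samples thus lay between the mock samples that stood apart and the remaining ones, and the log2 fold change was 0.10 ± 0.48 (adjusted p = 0.91). Without mock replicates 1 and 2 it was 1.05 ± 0.36 (adjusted p = 0.079), not called, and with the erythroid covariate it was 2.21 ± 0.38 (adjusted p = 0.0059). That covariate was added once the data had been seen. Its mock and irradiated values did not overlap in these cells, so that the fit does not cleanly separate it from IR. The Trp53-/- non-B samples were at 3.36 and 10.5 RPKM in mock and at 5.58 and 4.40 RPKM after IR. The response in Trp53+/+ non-B cells differed from that in B cells by -2.59 ± 0.53 (adjusted p = 0.0018), and this call was kept in all 13 alternatives, between -3.01 and -1.64, and without any single sample.

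Set against Ccna2, whose peak in the cell cycle it shares, Ccnf kept a narrow ratio in all samples other than irradiated Trp53+/+ ones. The ratio of their RPKM values, chosen after the values were seen and given with no test, was 0.29 to 0.43 in these 16 samples, the non-B mock replicates that stood apart (0.41 and 0.43) and irradiated Trp53-/- samples (0.36 to 0.40) included. In irradiated Trp53+/+ non-B cells it was 0.89, 1.26, 1.27 and 1.62, and in irradiated Trp53+/+ B cells it was 3.80, 4.67, 4.84 and 5.23. Both irradiated Trp53+/+ groups lay above the 16 other samples, and they did not overlap each other. In Trp53+/+ non-B cells the mean of Ccna2 went from 30.4 to 9.05 RPKM with IR and that of Ccnf from 12.1 to 10.7 RPKM. These means include mock replicates 1 and 2. Without these replicates the log2 fold change was -0.71 for Ccna2 and 1.05 for Ccnf, neither called. The part of each gene in the higher ratio was not tested. Against Mki67, the ratio of Ccnf was 0.206 to 0.372 in irradiated Trp53+/+ non-B samples and 0.904 to 2.096 in irradiated Trp53+/+ B samples. It was 0.09 to 0.194 in the 16 others.

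**Figure D4:**
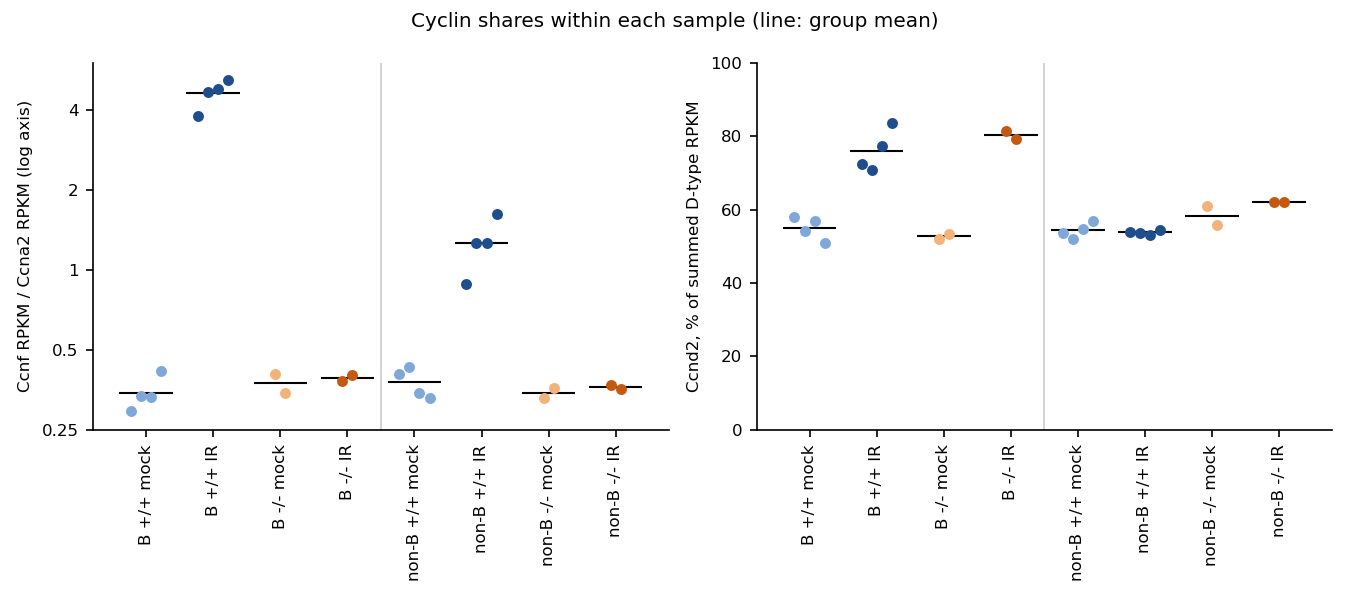
Ratio of Ccnf to Ccna2 RPKM (left, logarithmic axis) and share of Ccnd2 in the summed RPKM of Ccnd1, Ccnd2 and Ccnd3 (right) in each sample, with the group mean as a line. The ratio is 0.29 to 0.43 in the samples other than irradiated Trp53+/+ ones, and the Ccnd2 share is 70.7 to 83.5% in irradiated Trp53+/+ and 79.3 to 81.5% in irradiated Trp53-/- B cells.

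Promoter windows, the 250 bases before the start site, were given for 5 of the 9 cyclins by RefSeq in GRCm38.p6, a build other than that of the data (Ccnb1, Ccnb2, Ccnd3, Ccne1 and Ccnf, with 2 windows for Ccnd3). Those of Ccnf, which rose in irradiated Trp53+/+ B cells, and of Ccnb2 and Ccnb1, which fell there, are shown with matches to the CHR (cell cycle genes homology region, TTTGAA) and to the CCAAT box (CCAAT) in capitals. These are the elements through which mitotic genes are known to be bound by the DREAM complex and by NF-Y.
Ccnf, chr17:24251410-24251659, minus strand: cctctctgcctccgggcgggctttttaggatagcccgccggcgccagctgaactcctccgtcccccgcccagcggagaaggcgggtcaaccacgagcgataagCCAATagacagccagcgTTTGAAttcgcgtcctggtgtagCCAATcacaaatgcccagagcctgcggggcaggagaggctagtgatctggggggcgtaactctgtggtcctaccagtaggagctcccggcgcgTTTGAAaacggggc
Ccnb2, chr9:70421555-70421804, minus strand: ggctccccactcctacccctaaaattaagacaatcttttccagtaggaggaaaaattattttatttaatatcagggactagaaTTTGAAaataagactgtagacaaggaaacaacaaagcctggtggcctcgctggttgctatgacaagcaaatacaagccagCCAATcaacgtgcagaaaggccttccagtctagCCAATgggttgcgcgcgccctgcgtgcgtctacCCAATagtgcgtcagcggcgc
Ccnb1, chr13:100786487-100786736, minus strand: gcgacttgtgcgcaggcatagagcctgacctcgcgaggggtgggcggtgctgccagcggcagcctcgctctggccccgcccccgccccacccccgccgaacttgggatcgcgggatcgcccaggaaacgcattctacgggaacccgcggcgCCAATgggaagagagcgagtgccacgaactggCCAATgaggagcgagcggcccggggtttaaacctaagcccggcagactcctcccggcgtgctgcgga
The Ccnf window held 2 CHR matches, with their first base at -130 and -14 from the start site, and 2 CCAAT boxes. The Ccnb2 window held 1 CHR match and 3 CCAAT boxes, and the Ccnb1 window held 2 CCAAT boxes and no TTTGAA. The CHR match of Ccnb2 began at -167, before its CCAAT boxes at -87, -54 and -21, while the CCAAT boxes of Ccnf began at -147 and -107. Whether any of these matches bears on the mRNA changes was not tested. Searched on both strands, the CHR was found in 16% and the CCAAT box in 33.8% of all 32817 windows, 2 or more CHR matches in 1.81% and 2 or more CCAAT boxes in 10.1%. Neither an E2F site (TTTCCCGC, TTTCGCGC, TTTGCCGC or TTTGGCGC; 1.9% of windows) nor the p53 consensus decamer (7.1%) matched in any of the windows of the 5 cyclins, and Ccne1 held none of the elements. The elements do not overlap each other in these windows.

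Before IR, loss of p53 was not accompanied by a called difference in any cyclin. The largest difference between Trp53-/- and Trp53+/+ mock samples was -0.50 for Ccnb2 in B cells (95% interval -1.12 to 0.12) and -0.74 for Ccnb1 in non-B cells (-2.27 to 0.80), and limma gave no cyclin an unadjusted p under 0.05. Few genes differed at all, with 0.0217% called up and 0.0289% down in B cells, and 0.0143% up and 0.0285% down in non-B cells. In B cells the intervals of Ccna2, Ccnb1 (-1.16 to 0.33) and Ccnb2 hold differences as large as the response of Ccna2 to IR, whereas those of the other 6 cyclins do not.

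Between cell types, 6 cyclins were called higher in non-B than in B cells in unstressed Trp53+/+ samples (17.2% of genes were higher and 7.38% lower). For Ccnd1 (log2 1.11 ± 0.18, adjusted p = 8.3e-05) and Ccnd2 (0.74 ± 0.11, adjusted p = 5.1e-05) all non-B samples were above all B samples, as for 21.7% of genes, against 20% below. For Ccna2 (1.09), Ccnb1 (1.39), Ccnb2 (1.23) and Ccnf (1.17) the groups overlapped, and without non-B mock replicates 1 and 2 the differences were 0.26, 0.25, 0.22 and 0.22, none called. After IR, Ccnd1 (1.72 ± 0.18) and Ccnd3 (0.88 ± 0.26, adjusted p = 0.0075) were higher in non-B cells, against 20.3% of genes, and Ccnf was lower (-1.41 ± 0.37, adjusted p = 0.0036), against 15.3%. All irradiated non-B samples were above all B samples for Ccnd1, as for 24.6% of genes, and below for Ccnd2 and Ccnf, as for 26.8%. For Ccnd2 the difference after IR was -0.35 ± 0.11 (adjusted p = 0.013), under the fold threshold.

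Among the partners of the cyclins, Cdk1, which works with cyclins A2 and B, and Cdk2, which works with cyclins E and A2, fell in Trp53+/+ B cells (by 1.35 ± 0.20 and by 0.77 ± 0.07) and in Trp53+/+ non-B cells (by 1.71 ± 0.52 and by 0.66 ± 0.17). The Trp53+/+ non-B values here include mock replicates 1 and 2. Without these replicates the call of Ccna2, the cyclin closest to Cdk1 over the samples (Pearson's r 0.981), was lost. Cdk4, the partner of D-type cyclins, fell by 0.71 ± 0.09 in Trp53+/+ non-B cells and rose by 0.75 ± 0.11 in Trp53-/- B cells, in which Cdk6 rose by 0.77 ± 0.12. The Cdk list thus had 0 of 4 up and 2 down in Trp53+/+ B, 2 up and 0 down in Trp53-/- B, 0 up and 3 down in Trp53+/+ non-B and none called in Trp53-/- non-B cells. Of the Cdk inhibitors, 4 of 6 rose and 2 fell in Trp53+/+ B cells, 2 fell in Trp53-/- B cells, 2 rose in Trp53+/+ non-B cells and none was called in Trp53-/- non-B cells. Of all genes tested, 12.5% rose and 12.2% fell in Trp53+/+ B cells, and 13.1% and 11.2% in Trp53-/- B cells. In non-B cells the shares were 5.74% and 4.11% for Trp53+/+ and 0.193% and 0.25% for Trp53-/-. Cdkn1b, which encodes p27, fell in B cells of both genotypes (by 0.93 ± 0.06 and by 0.83 ± 0.08) and was at 0.07 in Trp53+/+ non-B cells, where it was not called.

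Among 18 other cyclins, calls were counted in the same way. Of 15 tested in B cells, 2 rose and 3 fell in Trp53+/+ and 1 fell in Trp53-/- cells, beside 12.5% up and 12.2% down, and 13.1% up and 11.2% down, of all genes, and of 16 tested in non-B cells 1 rose in Trp53+/+ and none was called in Trp53-/- cells (all genes 5.74% up and 4.11% down, and 0.193% up and 0.25% down). Ccng1, a p53 target, rose by 1.64 ± 0.09 in B and by 1.24 ± 0.07 in non-B cells of Trp53+/+ mice, and was at -0.16 and -0.08 in Trp53-/- cells. Ccng2 fell in B cells of both genotypes (by 1.51 ± 0.08 and by 1.59 ± 0.12) and was at -0.00 in Trp53+/+ non-B cells. Ccnh, Ccnc and Ccnt1, which serve transcription with their kinases, were under the fold threshold in each of the 4 IR comparisons, from -0.46 to 0.36.

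Genes that control the cyclins were counted by list, beside the same shares of all genes. In Trp53+/+ B cells, 2 of 13 E2F and pocket protein genes rose and 3 fell, 2 of 6 genes of the Cdk1 entry switch fell, 2 of 8 genes of cyclin and inhibitor degradation fell, none of 6 mitotic gene activators was called, and 2 of 9 proliferation markers fell. For Trp53-/- B cells the counts were 3 up and 4 down, 2 up and 1 down, 1 up and 0 down, 1 up and 0 down (Mybl2, by 1.42 ± 0.26), and 4 up and 0 down. In Trp53+/+ non-B cells they were 1 up and 1 down, 0 up and 2 down, 0 up and 2 down, none, and 0 up and 6 down, and in Trp53-/- non-B cells a single gene of these lists, in the entry switch, was called (down). Rb1 fell by 1.01 ± 0.10 and Cdc25a rose by 0.77 ± 0.14 in Trp53-/- B cells. Mki67, the usual marker of cycling cells, fell in Trp53+/+ B cells (by 0.82 ± 0.24) and was at -0.78 ± 0.37 in Trp53+/+ non-B cells, not called. Plk1, Cdc20, Foxm1, E2f1 and Pcna were called in none of the 4 IR comparisons, and Fbxo5 fell in Trp53+/+ non-B cells alone of them (by 1.04 ± 0.30, with the difference between comparisons not tested). The Trp53+/+ non-B counts and values of these genes include mock replicates 1 and 2, and are not given without them.

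Over the 24 samples, the 3 genes most like each cyclin were found by Pearson's r of log2(RPKM + 0.5) among 14688 genes, as a description over points that share groups. Ccna2 was closest to Cdk1 (0.981), Kif11 (0.976) and Kif4 (0.972), Ccnb2 to Aspm (0.972), Kif2c (0.966) and Nek2 (0.958), and Ccnb1 to Nek2 (0.973), the erythropoietin receptor gene Epor (0.965) and C330027C09Rik (0.963). Ccna2, Ccnb1 and Ccnb2 were at 0.952 to 0.955 with each other, while Ccnf was at 0.015 to 0.09 with them and was closest to Ckap2 (0.974), Spc25 (0.952) and Carhsp1 (0.933). Ccnd1 was closest to Marveld1 (0.95) and to the T cell surface genes Cd7 (0.945) and Thy1 (0.942). Ccnd2 was closest to Pogk (0.91), Nefh (0.899) and Ccdc85b (0.897), and Ccnd3 to Farp1 (0.918), Whsc1l1 (0.917) and Zfp36l2 (0.916). For Ccne1 they were Ap1b1 (0.936), Tonsl (0.923) and Tmem9 (0.914), and for Ccne2 the closest were Rad51ap1 (0.941) and Smim1 (0.938).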

How the data were processed

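The authors deposited RPKM values with 3 decimals for each sample. They masked bases under a quality of 20, aligned reads of ribosomal RNA-depleted total RNA to mm9 with TopHat (TopHat2 2.0.8 in the submitters' processing notes), kept 1 read of each set of duplicates, which caps high values, and counted exonic reads with featureCounts 1.4.5 on UCSC gene models.

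Values were tested as log2(RPKM + 0.5) with limma 3.58.1 in R 4.3.3 (eBayes with a mean-variance trend), over the 12 samples of each cell type with 4 group means and over the 16 Trp53+/+ samples for cell types, keeping genes that exceeded an RPKM of 1 in 1 or more of the Trp53+/+ samples of the fit (13821 in B, 14018 in non-B, 14598 in both). Fold changes are on this scale and understate those of low genes. P-values were adjusted by Benjamini-Hochberg over all genes tested. The labels do not say which samples share an animal, so that p-values measure the spread between these samples. Non-B cells were the flow-through of the B cell columns, so that B and non-B samples can come from the same spleens, and the fit over both cell types treats them as independent. Ratios were compared with exact permutation tests (scipy 1.17.1).

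Depth was estimated from the steps of low RPKM values with GENCODE lengths (91.9% of genes matched). Between 55.5 and 63.8% of values fell within 0.1 of whole reads, against 20% by chance, so that it is approximate and no count test was run. Mock and irradiated samples of the same number deviated together in Trp53+/+ non-B cells (r = 0.33, 0.155, 0.22 and 0.329 across genes). Mock 1 and 4 correlated best with the irradiated sample of their own number. Mock 2, however, did so with irradiated 1, and mock 3 with irradiated 4. The number is thus no sure sign of a pair, and the main fit has no block. On simulated data for Trp53+/+ cells, limma recovered 82 (B, 12730 genes) and 81 (non-B, 13361 genes) of 100 genes changed by 0.8 and 100 of 100 changed by 1.5 on the log2 scale. False calls were 3 and 7. Only genes above a minimum level were changed, and all genes were given the same spread. That spread was below the one behind the standard errors of several cyclins with IR in Trp53+/+ cells. In non-B cells these were Ccne1 (0.24), Ccne2 (0.34), Ccna2 (0.46), Ccnb1 (0.57), Ccnb2 (0.54) and Ccnf (0.48). In B cells they were Ccnd3 (0.27), Ccna2 (0.21), Ccnb1 (0.28) and Ccnb2 (0.23). The recovery thus does not hold for these cyclins. Members, gene lists and tests were chosen with earlier results of these data known. The genes named besides the 9 cyclins were the Cdks, 2 of their inhibitors, 5 other cyclins, 10 regulators and proliferation genes, Trp53, marker lists, neighbours in the genome and the 3 genes most like each cyclin, of which 1, for Ccne2, is not reported here.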

Additional observations from a re-analysis of the deposited data

Results flagged for a closer look

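The response to IR differed between groups for 3 cyclins by limma's test of the difference itself. Of all genes tested, 8.14% were called upward and 10.6% downward for the genotype difference in B cells. For the difference between cell types the shares were 12.6% and 15.4%. Ccnf differed between genotypes in B cells by 2.38 on the log2 scale and between Trp53+/+ non-B and B cells by -2.59, and it was higher in 4 of 4 irradiated Trp53+/+ B samples than in any mock sample. Against the Trp53+/+ B mock samples alone, 22.9% of genes were likewise higher in all 4. Ccnd2 differed between Trp53+/+ non-B and B cells by -1.08. Ccna2 differed between genotypes in B cells by -1.14, a call that most fits without a single B sample did not keep.

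None of the 36 sets of 4 Trp53+/+ samples (9 cyclins in 4 groups) held a single sample far from the others by Dixon's criterion. The Trp53+/+ non-B mock group does not meet it, since 2 of its 4 samples stand apart together.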

How the results depend on the processing

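Of the called values, Ccnf, Ccnd2 and Ccne1 in Trp53+/+ B cells, Ccnd2 and Ccne1 in Trp53-/- B cells, Ccne1 in Trp53+/+ non-B cells, the genotype difference of Ccnf and the cell type differences of the responses of Ccnd2 and Ccnf were kept in every alternative. Ccnd3 between irradiated cell types fell under the fold threshold with replicates 1 and 2 alone (0.49). The counts of cyclins that follow come without the share of all genes called under each setting. A change in them thus need not be particular to the cyclins. The 5 cyclins down in Trp53+/+ B cells became 3 with replicates 3 and 4 alone, where Ccnd1 and Ccne1 were kept and a cyclin outside the 5 was called. Ccna2, Ccnb1 and Ccnb2 were lost there (limma adjusted p = 0.12, 0.13 and 0.13). The 5 became 1 with the erythroid covariate (added after seeing the data), where the changes of Ccna2, Ccnb1 and Ccnb2 were about as large. They stayed 5 without any single sample. The 1 down in Trp53-/- B cells became 2 with the receptor gene covariate or replicates 1 and 2 alone (1 to 2 without single samples). The 1 cyclin down in the genotype difference in B cells became 0 with no filter, no variance trend or the erythroid covariate, 2 with the replicate block or Trp53+/+ replicates 1 and 2 alone (which also gave 2 up for 1) and 3 with quantile normalization (0 to 2 without single samples). With the receptor covariate or replicates 3 and 4 alone the count stayed 1, but Ccna2 was lost and another cyclin was called. The numbers did not pair mock and irradiated B samples (r = 0.01 to 0.091), and the block changed no other count by over 1.5 times.

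The 4 cyclins down in Trp53+/+ non-B cells became 1 with no filter, the receptor covariate, no mock replicates 1 and 2 or the erythroid covariate (which called 1 up for 0), and 2 with replicates 3 and 4 alone (1 to 5 without single samples). The genotype difference there, 0 in each direction, gave 1 down with replicates 1 and 2 alone or without mock 1 and 2, and 1 up and 1 down with the erythroid covariate. The 6 cyclins higher in unstressed non-B cells became 3 with no filter or quantile normalization and 2 with replicates 3 and 4 alone, without mock 1 and 2 or with the erythroid covariate (2 to 8 without single samples). Without B mock 2, B mock 4 or non-B mock 1 they were 3, and without non-B mock 2 they were 2. Without B mock 4 or non-B mock 1, Ccna2, Ccnb1, Ccnb2 and Ccnf were all lost and a cyclin outside the 6 was called. For the response difference between cell types, the 0 up became 1 with median-ratio scaling or replicates 3 and 4 alone (0 to 1 without single samples), and the 2 down became 5 with replicates 1 and 2 alone.

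Signs turned under the erythroid covariate for Ccna2 (0.56), Ccnb1 (0.23) and Ccnb2 (0.35) with IR in Trp53+/+ non-B cells, and for Ccna2 (-0.38), Ccnb1 (-0.29), Ccnb2 (-0.50) and Ccnf (-0.22) between unstressed cell types. Ccnf in irradiated Trp53+/+ non-B cells, not called, was at -0.65 with replicates 1 and 2 alone, and between -0.24 (without mock 3) and 0.42 (without mock 1) when single samples were left out, with -0.20 without mock 4. The cause was not tested. The ratio tests kept their side of the threshold with no pseudocount. The 2 samples of each Trp53-/- group, and about 33 to 98 reads behind the lowest values of Ccne2, Ccnb1, Ccnb2, Ccne1, Ccnd1, Ccna2 and Ccnf, limit the smaller differences.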
